A study of Mus musculus with 4 samples.

Results

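The fibril-forming collagen chains studied here are the 9 genes Col1a1, Col1a2, Col2a1, Col3a1, Col5a1, Col5a2, Col5a3, Col11a1 and Col11a2, out of 22180 genes that could be named on the array. They were taken by symbol from probe sets annotated with exactly 1 gene, and a gene with several such probe sets was represented by the one of highest mean over all arrays. All 9 were found: 7 had 1 probe set, while Col1a2 and Col5a1 had 2 each. The RNA came from the Achilles and plantaris tendons of wild-type C57Bl/6 mice, an inbred strain, at 4 months of age, with 2 arrays from males and 2 from females. No group carried a transgene or received a treatment. Sex is the only difference between the groups that the labels give. The labels call the cells tenocytes, but whole tendons were homogenized. Whether the samples of a sex are different animals is not stated, and a p-value here reflects only how these arrays spread, part of which may be technical. Each sample is also labelled with 3 RNA wells, without a statement on whether animals were pooled. One array stood apart in skeletal muscle genes: Myh4, a fast-fibre myosin gene, was at 7.35 on female 2 and between 10.20 and 10.62 on the others. Results on sex are therefore also given without female 2.

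Collagen fibrils are the load-bearing elements of tendon. Their molecules are triple helices of 3 alpha chains: type I joins chains encoded by Col1a1 and Col1a2, types II and III are made of a single kind of chain, and types V and XI are mixed. Type I forms the bulk of the adult tendon fibril, and type III is typical of thin, young or healing fibrils. Types V and XI are minor collagens at which fibrils are nucleated and by which their diameter is limited, with type XI best known beside type II in cartilage.

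Where RefSeq promoter sequence (build GRCm38.p6) was at hand, for 6 of the 9 genes, the 250 bases before the annotated gene start were searched for the CCAAT box (CCAAT), the TATA box (TATAAA) and the GC box (GGGCGG), each on both strands. Of 32851 RefSeq promoter windows of the same length, 33.8% held a CCAAT box, 12.4% a TATA box and 32.7% a GC box. The sequences of 4 genes are shown, 5′ to 3′, because Col1a2, Col3a1 and Col5a1 had the widest negative deviations on 1 female array among the 6, and Col11a2 was highest there. Col5a3 and Col11a1 were also lowest on that array. Capitals mark motif matches. They lie at chr6:4505368-4505617, chr1:45311288-45311537, chr2:27886175-27886424 and chr17:34038888-34039137, all on the + strand.
Col1a2: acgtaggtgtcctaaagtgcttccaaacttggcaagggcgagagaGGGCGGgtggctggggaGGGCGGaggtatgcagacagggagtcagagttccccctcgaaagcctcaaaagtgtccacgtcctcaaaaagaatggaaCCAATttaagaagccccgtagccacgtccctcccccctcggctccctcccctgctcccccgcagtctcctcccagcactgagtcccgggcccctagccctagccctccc
Col3a1: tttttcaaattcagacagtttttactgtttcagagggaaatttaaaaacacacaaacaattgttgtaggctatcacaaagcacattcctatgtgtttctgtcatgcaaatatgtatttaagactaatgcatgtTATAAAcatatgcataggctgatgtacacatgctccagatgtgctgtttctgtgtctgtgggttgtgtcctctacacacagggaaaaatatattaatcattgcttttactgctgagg
Col5a1: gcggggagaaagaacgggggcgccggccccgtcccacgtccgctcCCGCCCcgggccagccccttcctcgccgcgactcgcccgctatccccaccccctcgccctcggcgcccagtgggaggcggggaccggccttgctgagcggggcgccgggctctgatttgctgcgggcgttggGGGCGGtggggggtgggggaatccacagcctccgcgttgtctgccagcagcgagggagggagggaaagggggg
Col11a2: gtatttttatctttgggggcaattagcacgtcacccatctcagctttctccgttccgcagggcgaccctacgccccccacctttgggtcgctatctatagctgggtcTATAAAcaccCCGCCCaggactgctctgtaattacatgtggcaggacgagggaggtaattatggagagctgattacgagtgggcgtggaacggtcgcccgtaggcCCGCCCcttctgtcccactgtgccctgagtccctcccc
The Col1a2 window held 1 CCAAT box, 109 bases before the start, and 2 GC boxes. The Col3a1 window held 1 TATA match, 117 bases before the start, and neither of the other motifs. Its G and C content was 35.2%, against 76.4% for Col5a1 and a median of 52.4% over all windows. Col5a1 had 2 GC boxes alone, and Col11a2 had 1 TATA match and 2 GC boxes. The windows of Col5a3 and Col11a1, not shown, each held 1 CCAAT box and 2 GC boxes, as that of Col1a2 did. A match is a description of letters and shows no factor at work.

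Type I and type III chains gave the strongest signals of the family. All values are log2 RMA signals as deposited, on which a step of 1 is a doubling. Col1a2, the alpha2 chain of type I, was at 9.22 in male 1, 8.995 in male 2, 8.56 in female 1 and 9.18 in female 2. Its mean ranked 140 of 22180 genes, above 99.4% of the others. Col1a1, the alpha1 chain of type I, was at 6.46, 6.33, 6.04 and 6.54 in the same order of arrays. It ranked 955, above 95.7% of genes. Col3a1, the only chain of type III, was at 6.07, 5.95, 5.18 and 6.17 and ranked 1347, above 93.9%. For each of these 3 genes female 1 was the lowest array, and the male arrays lay closer to each other than the female arrays did.

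The ranks held within single arrays. Col1a2 stood above 98.99% to 99.49% of genes in each array and Col1a1 above 94.04% to 96.17%. Col3a1 moved most of these 3, from 89.69% on female 1 to 95.03% on female 2.

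These ranks describe array signal. Probe sets respond differently to the same amount of RNA, so the ranks do not give the number of transcripts. Col1a2 shows the size of this effect. Its second probe set read 5.76, 5.68, 5.34 and 5.99, a mean of 3.30 below the first, and lay above 93.4% of genes. With the first probe set Col1a2 stood above Col1a1, and with the second its mean stood below those of Col1a1 and Col3a1. On female 1, however, the second probe set read above Col3a1 (5.34 against 5.18). The order of the type I chains and of Col1a2 and Col3a1 is therefore not fixed by these data.

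Type V chains lay at intermediate signals. Col5a2 (alpha2) was at 4.76 in male 1, 3.96 in male 2, 4.07 in female 1 and 4.48 in female 2, above 84.1% of genes by its mean. Col5a1 (alpha1), the chain present in nearly all type V molecules, was at 4.36, 3.81, 3.74 and 4.30, above 81.2%. Male 1 and female 2 were the higher arrays for both, one from each sex. Col5a3 (alpha3), a chain found in a few tissues, varied less, at 3.36, 3.33, 3.17 and 3.44, above 71.5%. The second Col5a1 probe set read 2.86, 2.68, 2.72 and 3.18, above 61.6% of genes, and on it Col5a1 would stand below Col5a3.

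Type II and type XI chains lay close to the medians of the arrays, which ran from 2.266 to 2.303 and near which signal was not told from background. Col2a1, the cartilage collagen, was at 2.76, 2.80, 2.76 and 2.91, above 60.3% of genes. Col11a2, the alpha2 chain of type XI, was at 2.55, 2.51, 2.77 and 2.48, above 53.7%. Col11a1, the alpha1 chain, was at 2.49 and 2.68 in the male arrays and at 2.12 and 2.16 in the female arrays, above 46.3% of genes. Its place ran from 37.5% on female 1 to 56.95% on male 2, the widest change of rank among the 9. Many genes share such signals, so a small step in signal moves a rank far. In signal Col11a1 ranged over 0.57, less than Col3a1 with 0.99. Col11a1 was also the only one to lie below the median of an array, in both females. By the spread over arrays, Col11a2 overlapped both Col2a1 and Col11a1, while Col2a1 and Col11a1 did not overlap. The ranges of Col5a2 and Col5a1 overlapped too, as did those of Col1a1 and Col3a1. Within every array, however, Col5a2 read above Col5a1 and Col1a1 above Col3a1.

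**Figure D1:**
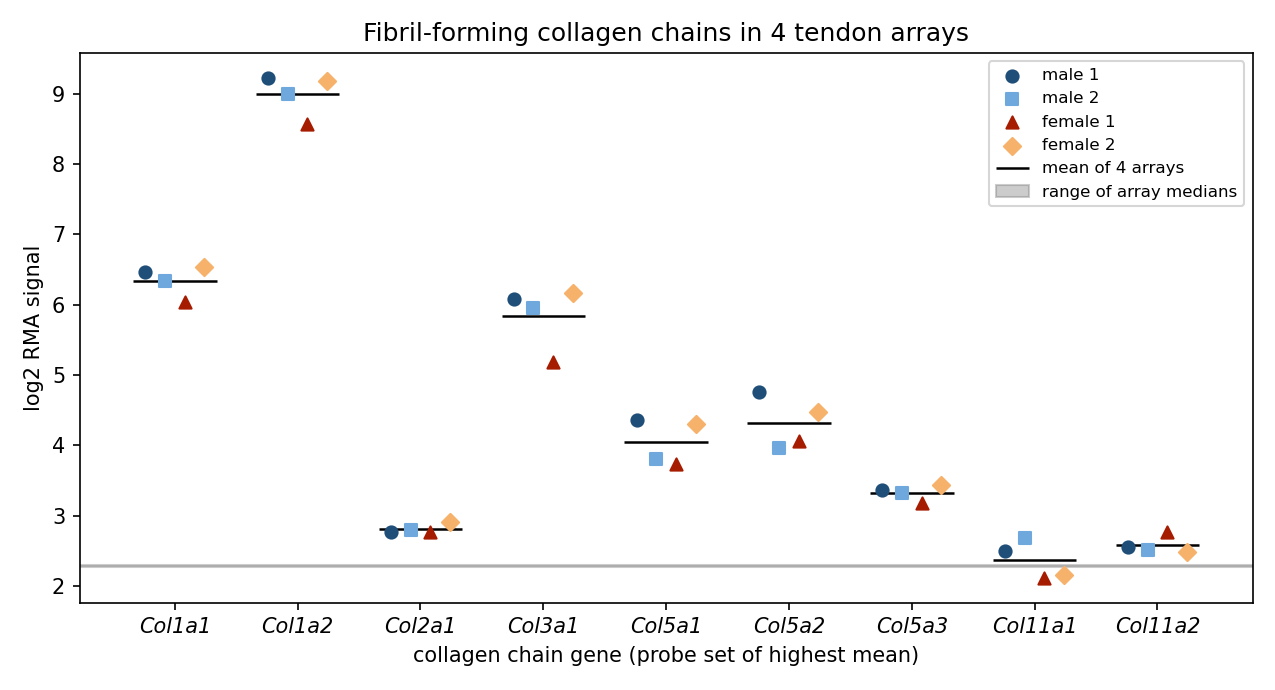
Log2 RMA signal (vertical axis) of the 9 chain genes in each of the 4 arrays, with a line at the mean of the 4 and a grey band at the range of array medians. Col1a2, Col1a1 and Col3a1 stand highest, from 5.18 to 9.22, and Col11a1 reaches below the band in both female arrays.

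**Figure D2:**
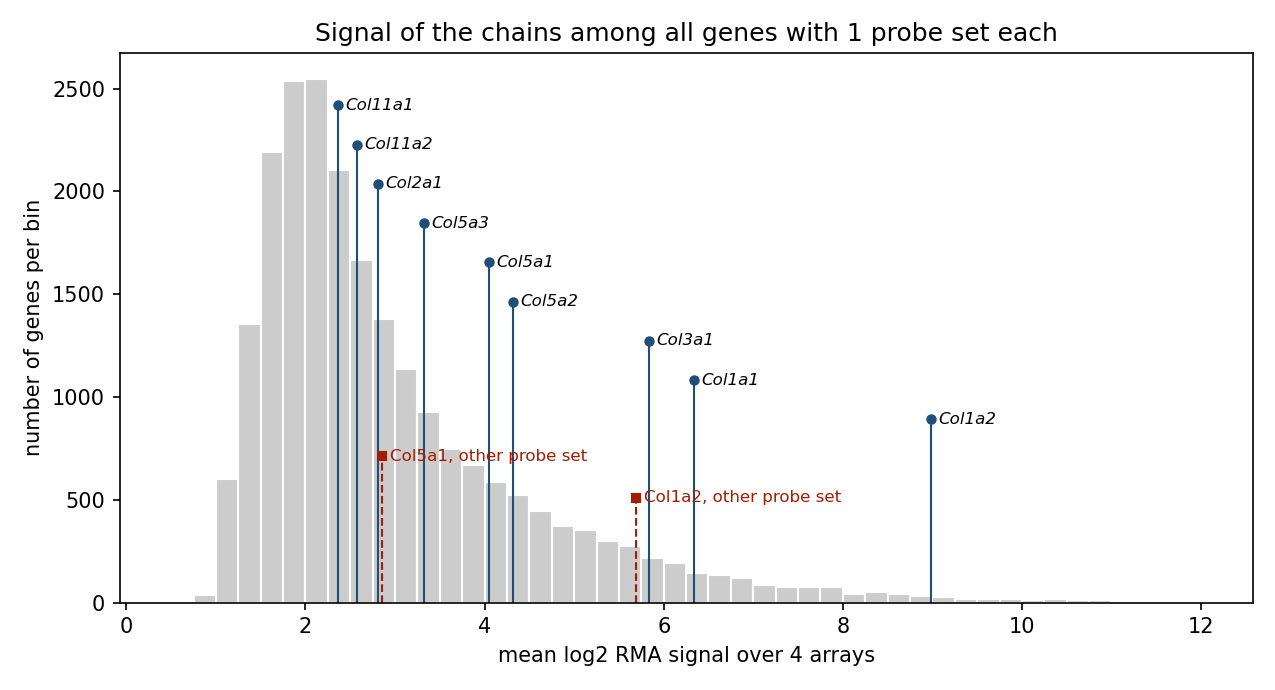
Number of genes (vertical axis) by mean log2 RMA signal over 4 arrays (horizontal axis, bins of 0.25), for 22180 genes with 1 probe set each. Blue stems mark the chosen probe sets and dashed red stems the second probe sets of Col1a2 and Col5a1, and the height of a stem has no meaning; the 2 probe sets of Col1a2 lie 3.30 apart.

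Cartilage markers were read to set the type II and XI signals beside that tissue. Of 11 markers, 5 lay above the median of every array: Acan, Sox9, Col9a2, Col10a1 and Chad. Chad, the chondroadherin gene, was the brightest, between 9.69 and 10.70. The link protein gene Hapln1 lay between 1.48 and 1.84 and the chondromodulin gene Cnmd between 1.24 and 1.63, below the median of every array. Matn3, a cartilage matrilin gene, lay between 1.38 and 1.94, below it as well. The part of cartilage cells in the type II and XI signals was not tested.

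The chains of a type were then compared within each array. A difference between probe sets carries an unknown constant from probe response, so only its change from array to array is read. For type I, Col1a1 minus Col1a2 was -2.76 in male 1, -2.67 in male 2, -2.52 in female 1 and -2.64 in female 2, a mean of -2.65 ± 0.10 (SD, n = 4). Its range over arrays was 0.24, while Col1a1 alone ranged over 0.50 and Col1a2 over 0.66. With the second Col1a2 probe set the difference was 0.65 ± 0.07 (SD, n = 4), with a range of 0.15. The signals of the 2 type I chains thus moved together more closely than either stayed constant, on either probe set. That was not particular to chains of 1 type. Col3a1 minus Col1a2 ranged over 0.38 and Col5a1 minus Col1a1 over 0.43, against 0.99 for Col3a1 and 0.62 for Col5a1 alone. Col5a2 minus Col3a1, in contrast, ranged over 0.88.

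In type V, Col5a1 minus Col5a2 was -0.40, -0.15, -0.33 and -0.17, a mean of -0.26 ± 0.12 (SD, n = 4) with a range of 0.25, against ranges of 0.62 and 0.80 for the chains themselves. Col5a3 did not follow them as closely. Col5a2 minus Col5a3 ran from 0.63 in male 2 to 1.41 in male 1 (0.99 ± 0.32, SD, n = 4), and Col5a1 minus Col5a3 from 0.48 to 1.00 in the same arrays (0.73 ± 0.25, SD, n = 4). The closeness of Col5a1 to Col5a2 depended on the probe set: with the second one the difference ranged over 0.62. In type XI, Col11a1 minus Col11a2 was -0.06 in male 1, 0.18 in male 2, -0.65 in female 1 and -0.33 in female 2. Both female values lay below both male values, with chains that are near background. Col1a1 minus Col1a2 split by sex as well, higher in both females, but not with the second Col1a2 probe set. Among single genes, arrays did not overlap for 17.6% in the lower and 15.7% in the higher direction. No such share was computed for pairs of genes.

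Between types, Col3a1 minus Col1a1 was -0.39, -0.38 and -0.37 in male 1, male 2 and female 2, and -0.86 in female 1. This pair was chosen after its values were seen. The type III signal was thus lower relative to Col1a1 on that array than on the others. Against the first Col1a2 probe set the contrast was smaller, -3.39 in female 1 and -3.15 to -3.01 elsewhere. Col3a1 and Col5a2 are next to each other on chromosome 1 among the protein-coding genes of RefSeq (GRCm38.p6). Their difference, Col5a2 minus Col3a1, nevertheless ran from -1.99 in male 2 to -1.11 in female 1, the widest range of the pairs examined, 0.88.

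**Figure D3:**
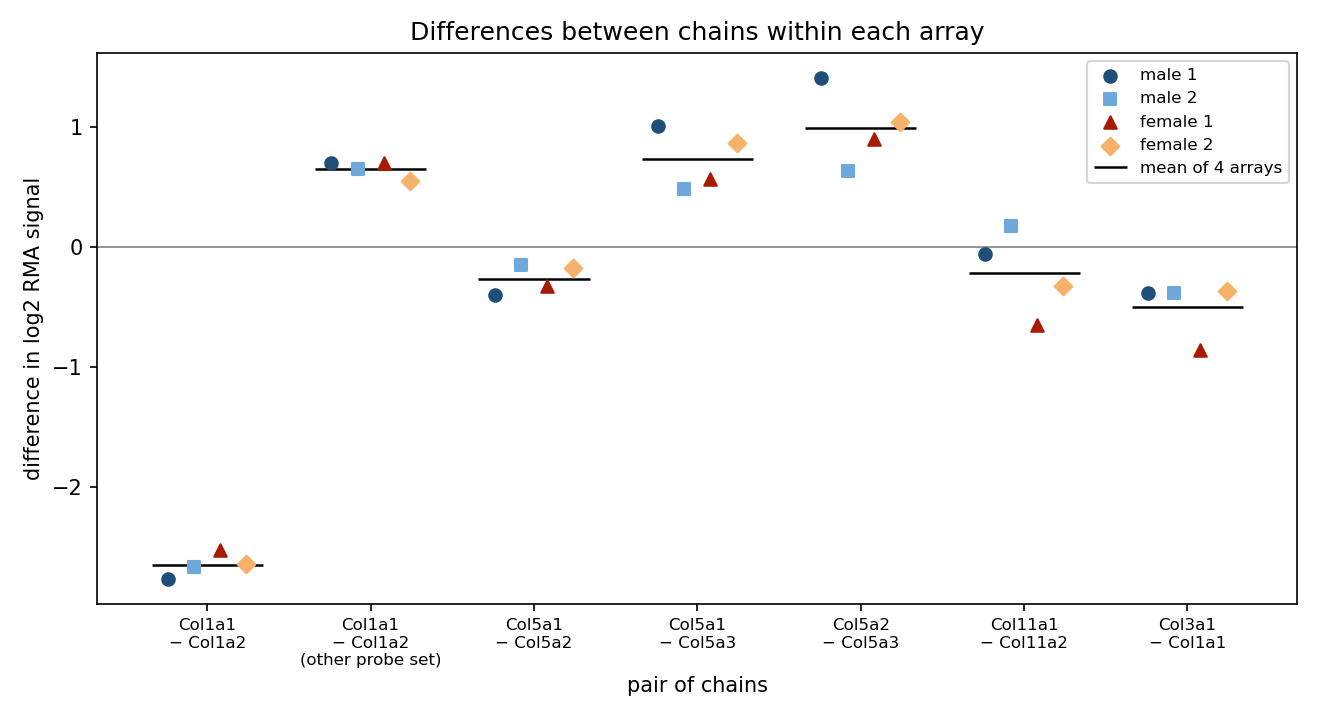
Difference in log2 RMA signal between pairs of chains (vertical axis) within each of the 4 arrays, with a line at the mean. The 4 points of Col1a1 minus Col1a2 lie within 0.24 on the first probe set and within 0.15 on the second, while Col5a2 minus Col5a3 and Col11a1 minus Col11a2 spread over 0.77 and 0.82.

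The arrays differed from each other in a way that sex did not describe. On female 1, 8 of the 9 chains lay below their own mean over the 4 arrays, as did 52.3% of all genes, and the median deviation was -0.25, against -0.01 for all genes. For 7 of the 9 chains female 1 was the lowest array, beside 25.1% of all genes. For Col2a1 that order rests on a gap under 0.01, and after centring on array medians the count was 6. The deviation was widest for Col3a1 (-0.66), then Col1a2 (-0.43), Col5a1 (-0.31) and Col1a1 (-0.30). Col11a2 was the exception, at its highest on female 1 (0.19). The second probe set of Col1a2 was also lowest on female 1 (-0.35), but that of Col5a1 was lowest on male 2 (-0.18, against -0.14 on female 1).

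On female 2 the chains had a median deviation of 0.16, on male 1 of 0.13 and on male 2 of -0.01. Col5a1 and Col5a2 departed from type I on male 2, where they lay at -0.25 and -0.36 while Col1a1 and Col1a2 were at -0.01 and 0.01. Col5a3 was at its mean on male 2 (0.00), so the low value there was that of Col5a1 and Col5a2 and not of every type V chain. In bulk tendon, fewer collagen-producing cells and less collagen RNA per cell cannot be told apart.

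Markers of tendon and of other cell types were set beside this pattern as whole lists. On female 1, 8 of 9 tendon markers lay below their own means, with a median deviation of -0.49, and on female 2 the median was 0.62. Unlike for the chains, female 1 was the lowest array for only 2 of the 9 tendon markers (22.2%, beside 25.1% of all genes). Male 2 was the lowest for 4. On male 2, 8 of 9 tendon markers also lay below their means (median -0.19), where the chains were at -0.01. The summed tendon signal (log2 of the added linear values) was 9.66 to 10.41 in males and 9.63 to 11.13 in females, and that of the 9 chains 9.47 to 9.70 and 9.07 to 9.67. Tendon markers were present as the label states, 8 of 9 above the median of every array, the exception being the transcription factor gene Mkx, at 2.26 in female 1. Fmod, which is also a fibril-surface proteoglycan gene, was at 7.90, 7.75, 7.16 and 8.85. Angptl7 was the tendon marker of highest signal, from 7.71 to 9.60.

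Skeletal muscle markers stood apart on female 2, where 8 of 9 lay below their means (median -0.16). That median hides the wide deviations of the fast-fibre genes on female 2, -2.31 for Myh4, -2.27 for Actn3 and -2.19 for Mybpc2. On female 1 only 1 of 9 lay below its mean (median 0.23), but those means include the low values of female 2. Myh4, Actn3, Mybpc2 and Tnnt3 were lower on female 1 than on both male arrays. Acta1, Myh1 and Myh7 were highest there, and Ckm and Mb lay between the males. The summed signal of the muscle markers was 13.19 to 13.29 in males, 13.20 on female 1 and 12.59 on female 2. Acta1, the skeletal actin gene, was the brightest at 11.09 to 11.34. Macrophage markers stood apart on female 2 alone: 6 of 7 lay below their means on each of the other arrays (medians -0.23 on male 1, -0.20 on male 2 and -0.32 on female 1), and the median was 0.73 on female 2 (7 of 8 measured, summed signal 8.44 to 8.69 in males and 8.45 to 9.53 in females), with the lysozyme gene Lyz2 highest, from 7.89 to 8.77. Markers of loose connective tissue fibroblasts were lowest on male 2 (-0.43, 5 of 6 below their means), at -0.18 on female 1 and 0.79 on female 2, with Dpt, the dermatopontin gene, highest (7.38 to 9.002). The summed signal of those 6 genes was 8.62 to 9.51 in males and 8.71 to 9.11 in females. Adipocyte markers stood apart from the chains, with a median deviation of 0.10 on female 1 and -0.72 on male 1. Their summed signal was 10.19 to 10.65 in males and 10.63 to 10.79 in females, and their highest gene was Fabp4, from 10.06 to 10.54. The part of cell composition in the collagen pattern was not tested.

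Endothelial markers, with Cdh5 highest on average (5.49 to 6.52), had a median deviation of 0.01 on female 1 and were lowest on male 1 (-0.54); their summed signal was 6.60 to 7.44 in males and 7.29 to 7.55 in females. Pericyte and smooth muscle markers, led by Rgs5 (8.30 to 8.75), were at -0.05 on female 1, with summed signals of 8.70 to 8.89 in males and 8.56 to 8.95 in females. Bone markers were at -0.07 there, with the bone sialoprotein gene Ibsp highest (5.33 to 7.55) and summed signals of 6.12 to 6.73 in males and 6.47 to 7.92 in females, and cartilage markers likewise at -0.07, with 9 of 11 below their own means. Keratin genes of skin were at -0.13, with Krt1 highest, from 2.67 to 3.17, and summed signals of 4.29 to 4.32 in males and 3.99 to 4.03 in females.

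**Figure D4:**
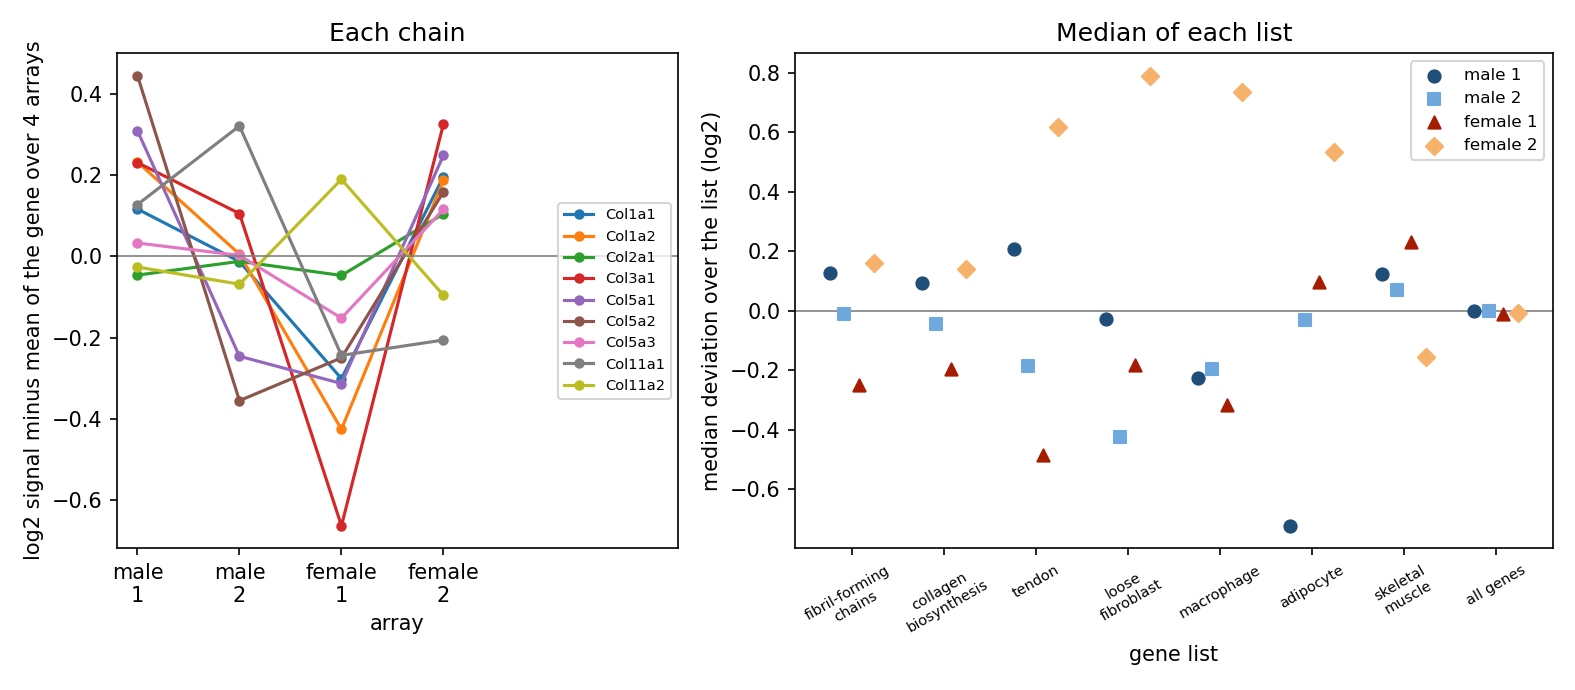
Left, log2 signal of each chain minus its own mean over the 4 arrays (vertical axis) by array, with lines that only join the points of 1 gene. Right, the median of these deviations over each gene list by array. On female 1 the chains, collagen biosynthesis genes and markers of tendon, loose fibroblasts and macrophages lie below 0. Markers of skeletal muscle and adipocytes lie above it. A deviation on 1 array also depends on the values of the others.

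Male and female tendon were compared to describe normal expression in each sex. The female mean was below the male mean for 7 of the 9 chains, beside 51.3% of all genes, with a median difference of -0.09 (female minus male; -0.007 over all genes). None passed the test. Limma called 0 of the 9 after Benjamini-Hochberg adjustment over 23521 probe sets, of which it called 0 (0%), and the adjusted p of the chains ran from 0.969 to 0.993. No gene of the sex chromosomes was therefore called either, and no value of such a gene is given here to check the sex labels. An unadjusted p under 0.05 was reached by 1 chain, Col11a1, and by 4.49% of probe sets.

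For type I, Col1a1 had a male mean of 6.39 ± 0.09 and a female mean of 6.29 ± 0.35 (SD, n = 2 each), which differ by -0.10 (SE 0.22, 95% interval -0.70 to 0.49). Col1a2 differed by -0.24 (SE 0.26, 95% interval -0.94 to 0.46). Its second probe set gave -0.05 (SE 0.26). The female arrays lay on both sides of the male arrays for Col1a1, so the groups overlapped. Col3a1 had the widest interval, a difference of -0.34 (SE 0.36, 95% interval -1.31 to 0.64), and its female arrays likewise enclosed the male ones. The number of arrays limits the precision, and these intervals allow a change of either sign.

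Type V chains differed by -0.06 (SE 0.30) for Col5a1, -0.09 (SE 0.33) for Col5a2 and -0.04 (SE 0.17) for Col5a3, each smaller than its SE. The second Col5a1 probe set had the opposite sign, 0.19 (SE 0.22). Col2a1 differed by 0.06 (SE 0.15) and Col11a2 by 0.09 (SE 0.17). Only Col11a1 had arrays of the sexes that did not overlap, lower in females, as 17.6% of all genes did. The male mean was 2.59 ± 0.14 and the female mean 2.14 ± 0.03 (SD, n = 2 each), which differ by -0.45 (SE 0.15, 95% interval -0.86 to -0.04, adjusted p = 0.969 by limma). The female mean lay below the median of every array. No chain had arrays that were all higher in females, as 15.7% of genes did.

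The signs rested on single arrays. Without female 1 only 2 of the 9 chains were lower in females (median difference 0.11), and without female 2, 8 of 9 were (median -0.35). Without male 1 the count was 5 (median -0.02) and without male 2 it was 7 (median -0.34). For Col3a1 the difference was 0.16 without female 1 and -0.83 without female 2. Col11a1 was lower in females without each array in turn, from -0.55 to -0.35. Its sign could not change, because its arrays of the sexes did not overlap.

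**Figure D5:**
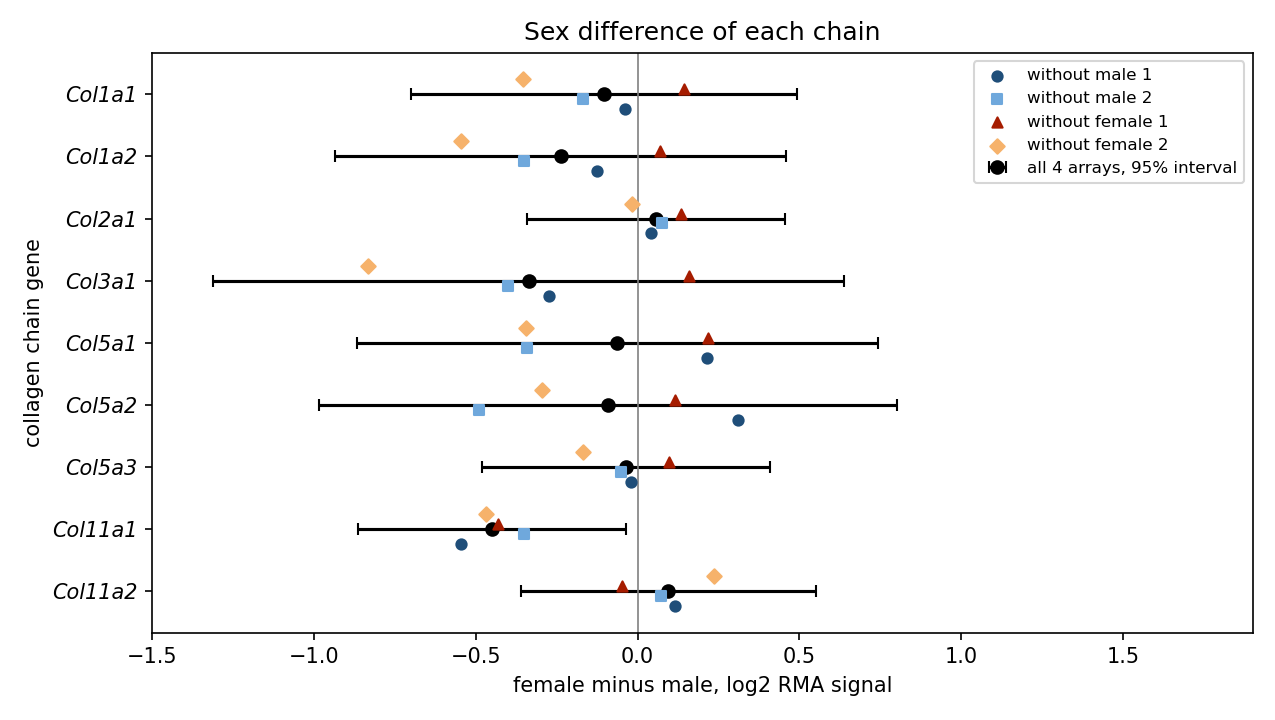
Difference between the sexes (horizontal axis, female minus male in log2 RMA signal) for each chain, with its 95% interval from limma over all 4 arrays, and the value without each array in turn. Without female 1 the points of 7 chains lie above 0, while those of Col11a1 stay between -0.55 and -0.35 in every case. The sign of Col11a1 could not change, because its arrays of the sexes do not overlap.

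Genes that make, process and bind fibrillar collagens were read as a list. Of 41 listed, 37 were measured. Plod3, Fkbp10, Adamts2 and Loxl2 were not analysed here. The female mean was higher for 20 and lower for 17, with a median of 0.02; limma called 0 of them, and 1 had an unadjusted p under 0.05. Arrays did not overlap for 7 in the higher and 3 in the lower direction, beside 15.7% and 17.6% of all genes. On female 1, 26 of the 37 lay below their own mean (median -0.20), beside 52.3% of all genes. Of the 37, 16 had their lowest value there (43.2%, beside 25.1% of all genes). On male 2, 22 of the 37 also lay below their own mean (median -0.05), and 18 were highest on female 2. By role, 6 of 7 propeptide proteases and enhancers lay below their own mean on female 1. So did 4 of 7 genes of the prolyl hydroxylase family and 4 of 7 listed under chaperones, folding or export. The latter group also held the transcription factor gene Creb3l1. Below their own mean were also 3 of 4 each among lysyl hydroxylases and glycosyltransferases, lysyl oxidases and fibril-surface proteoglycans. The median deviation was -0.21 for the propeptide group and -0.23 for the group of chaperones, folding or export.

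The genes with the largest differences in each direction are given singly, and none passed the test. Lox, the lysyl oxidase gene whose enzyme starts collagen crosslinks, was at 3.82 and 3.56 in males and 4.32 and 6.36 in females. That difference of 1.65 (SE 0.71) was mostly female 2, without which it was 0.63. P3h2, a prolyl 3-hydroxylase gene, was at 3.90 and 5.20 in males and 6.05 and 5.22 in females, a difference of 1.08 (SE 0.54), and 0.43 without male 1. Lum, which encodes the fibril-surface proteoglycan lumican, differed by 0.57 (SE 0.52) and by -0.16 without male 2.

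In the other direction, P3h3, a further member of the prolyl 3-hydroxylase family, was at 3.34 and 3.22 in males and 2.85 and 2.84 in females, a difference of -0.44 (SE 0.15). P4ha3, a catalytic subunit of prolyl 4-hydroxylase, differed by -0.39 (SE 0.44) and by 0.13 without male 1. Col27a1, a fibrillar collagen gene outside the classical types, was at 3.54, 3.48, 3.07 and 3.38, a difference of -0.29 (SE 0.18), also lowest on female 1. Col24a1, its relative, was at 2.66, 2.72, 2.59 and 2.67, near the array medians. The biglycan gene Bgn, chosen after its values were seen, resembled Col3a1 across the arrays, at 9.65, 9.38, 8.94 and 9.74. Serpinh1, the collagen-specific chaperone gene, also chosen so, was at 2.88, 3.31, 2.86 and 3.28 and did not follow the chains on male 1.

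The genes most like Col1a1 in their pattern were sought by the root mean square distance between array values, each gene centred on its own mean. Among 12449 other genes with a mean above the highest array median, the 5 nearest were Raph1, Tmem63a, Slc25a22, Sgip1 and Llgl1, at distances of 0.01 to 0.03. Col1a2 was number 188, at 0.09, with 1.5% of genes nearer, and Col5a3 number 263. Col3a1 was number 2837, at 0.21. For Col3a1 the 5 nearest were Sbpl, Spint2, Smarcd1, Bdh2 and S100a11-ps, at 0.06. Bgn was number 33 from it and Col1a2 number 70, with 0.554% of genes nearer. With 4 arrays many genes lie close by any such measure, so these names are a description.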

How the data were processed

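Expression was measured on Mouse Gene ST 2.1 arrays from 12.5 ng of total RNA per sample, amplified and biotinylated as 3.75 ug of cDNA, per the labels' protocols. The log2 values were deposited by the authors, 1 column per array. Per the submitters' processing notes they were made with oligo and RMA, which corrects background, normalizes arrays and summarises probes; their versions and the annotation build are not given in the sources used here. That the scale is log2 follows from RMA and from the range of values.

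Of 41345 rows, 23521 probe sets had exactly 1 gene symbol in GEO's platform annotation. Differences between sexes were fitted to these with limma 3.58.1 in R 4.3.3 (sex as the only term, eBayes with the default prior, Benjamini-Hochberg adjustment, threshold 0.05), tested on simulated data. With 2 arrays per sex an exact permutation test cannot go below 0.333. Ranks and within-array differences were computed in Python 3.11.15 and have no test. The same-numbered arrays did not deviate together (correlation -0.06), so the numbers were not used as pairs.

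The members and gene lists were chosen with earlier results of these data known. Named genes were all 9 chains, Col24a1 and Col27a1, the 3 biosynthesis genes of largest difference in each direction, the 5 genes nearest to Col1a1 and to Col3a1, and the brightest marker of each list. Other markers are named where their values stand beside a result, and Creb3l1 is named to state what its group held. Bgn and Serpinh1 were chosen after their values were seen, as were the markers named as exceptions. Predicted genes, small RNAs and receptors of smell were not named. Alternatives are given in the closing section.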

Additional observations from a re-analysis of the deposited data

How the results depend on the processing

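With 4 arrays, no alternative changed a call: limma called 0 probe sets and 0 of the 9 chains with all rows tested, dim probe sets left out, a trended and robust prior, quantile normalization, centring on array medians, array weights, a minimum change of 1.2-fold, 1 probe set per gene, an adjusted p under 0.1 and each array left out. With the replicate number as a block, the replicate block also gave 0 calls, and Col3a1 kept its difference of -0.34 (SE 0.35). A sex left with a single array borrows its spread from the other sex in the fit. Leaving out each array moved the sex differences from -0.35 to 0.14 for Col1a1, -0.55 to 0.068 for Col1a2, -0.018 to 0.13 for Col2a1, -0.83 to 0.16 for Col3a1, -0.35 to 0.22 for Col5a1, -0.49 to 0.31 for Col5a2, -0.17 to 0.10 for Col5a3 and -0.049 to 0.24 for Col11a2. It moved them from -0.90 to 0.13 for P4ha3 and -0.16 to 1.29 for Lum, and the biosynthesis genes higher in females from 13 without female 2 to 25 without female 1. Col5a1 turned to 0.061 with its probe sets averaged and to 0.19 on its second one. Averaging probe sets put Col1a2 above 98.1% and Col5a1 above 74.2% of genes, and Col1a1 minus Col1a2 at -1.0, Col5a1 minus Col5a2 at -0.86 and Col5a1 minus Col5a3 at 0.13. The cause of these shifts was not tested. Ranked among all rows, Col2a1 stood above 64.8%, Col5a3 above 74.4% and Col11a2 above 58.9%. Quantile normalization and centring on array medians, added after the data were seen for the array pattern, left 8 of 9 chains below their own mean on female 1. Signals near the array medians limit what can be read for types II and XI.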
